A study of Homo sapiens with 6 samples.

Results

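Kinesins are motor proteins that move along microtubules, and their genes were followed here in luciferases-expressing HepG2 cells with and without sedanolide. The family was taken as the protein-coding genes with symbols KIF plus a number and an optional letter, together with KIFC1, KIFC2 and KIFC3, which gave 42 of the 61541 genes in the count table. KIF12 is named with the family because it was selected on its lower level after sedanolide in these same libraries, so its change, its count past the thresholds included, is a description of that choice and not a test of it. The other members were chosen by their symbol alone.

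HepG2 is a human hepatoblastoma cell line. The cells used for all libraries carried the red-emitting luciferase SLR3 under antioxidant response elements joined to a thymidine kinase (TK) promoter, and the green-emitting luciferase ELuc under the TK promoter alone, both on a mouse artificial chromosome. RNA was sequenced from 3 libraries of control cells and from 3 libraries of cells exposed for 24 h to 100 μM sedanolide, a phthalide of celery with an electrophilic carbonyl group. The labels do not state what the control cells received or whether the 3 libraries of a group came from separate cultures, so that p-values measure only the spread between these samples.

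Most kinesins have a motor domain that splits ATP. The parts outside it decide what the motor carries or where on the spindle it acts. Mitotic kinesins separate the spindle poles, align chromosomes, build the central spindle and cut the daughter cells apart, and many of their genes are transcribed mostly in G2 and M phase. Transport kinesins carry vesicles, endosomes and mitochondria, which in hepatocytes serve secretion and the supply of the bile canaliculus. KIF12 belongs to neither group, and variants of it cause an inherited cholestatic liver disease.

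To show the DNA before the genes that the results turn on, the RefSeq promoter table (GRCh38.p14) was used, which holds windows for 34 of the 42 kinesins. The 250 bases before each start were searched on both strands for the cell cycle genes homology region (CHR; TTTGAA or TTCGAA), for CCAAT, and for the core of the antioxidant response element (ARE; TGACNNNGC or TGAGNNNGC). In the sequences, each written 5′ to 3′ on the strand of its gene and ending at the base before the start, capitals mark a CHR or CCAAT match in either orientation (ATTGG is CCAAT on the other strand). KIF12 is shown as the member that changed, KIF4A and KIF11 as mitotic genes with CHR and CCAAT, and KIF18B and KIF20B as the mitotic genes that varied most between libraries. The windows lie at chr9:114099293-114099542 (minus strand, KIF12), chrX:70290004-70290103 (plus, KIF4A), chr10:92593030-92593129 (plus, KIF11), chr17:44947774-44947873 (minus, KIF18B) and chr10:89701490-89701589 (plus, KIF20B).
KIF12: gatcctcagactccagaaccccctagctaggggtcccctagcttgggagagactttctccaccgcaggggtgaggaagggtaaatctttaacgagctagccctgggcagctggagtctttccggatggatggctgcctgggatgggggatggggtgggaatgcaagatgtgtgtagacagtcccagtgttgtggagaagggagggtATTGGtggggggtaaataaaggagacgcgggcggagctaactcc
KIF4A: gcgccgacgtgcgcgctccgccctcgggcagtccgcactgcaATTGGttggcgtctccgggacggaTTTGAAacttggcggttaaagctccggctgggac
KIF11: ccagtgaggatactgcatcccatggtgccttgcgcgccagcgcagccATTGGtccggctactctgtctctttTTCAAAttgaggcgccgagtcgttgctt
KIF18B: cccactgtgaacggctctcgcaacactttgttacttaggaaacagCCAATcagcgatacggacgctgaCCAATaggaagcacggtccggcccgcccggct
KIF20B: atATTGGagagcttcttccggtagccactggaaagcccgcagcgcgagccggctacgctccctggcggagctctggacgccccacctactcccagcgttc

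A CHR match was found before 6 of 14 mitotic kinesins (KIF4A, KIF11, KIF15, KIF18A, KIF22 and KIF23), 1 of 12 transport kinesins (KIF5B) and 0 of 8 ciliary and other kinesins, and before 17.2% of the 27305 genes of the promoter table. CCAAT was found before 11 of 14 mitotic, 4 of 12 transport and 3 of 8 other kinesins and before 37.0% of all genes. Both matches together stood before 5 mitotic kinesins, 1 transport kinesin and 6.24% of all genes. In KIF4A the CHR begins 34 bases and the CCAAT 58 bases before the start, and in KIF11 they begin at 28 and 53 bases. The ARE core was found before 6 of 14 mitotic, 5 of 12 transport and 2 of 8 other kinesins, against 28.1% of all genes. KIF12 has 2 annotated starts, and the window of each holds a CCAAT match and neither a CHR nor an ARE core match. These are matches of letters in a window and no measurement of a factor's binding.

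Expected counts per library were 16420258 to 26714853, and all kinesins together took 0.164% to 0.177% of them. On component 1 of a principal component analysis, which held 56.1% of the variance, the libraries formed a first side of control 1, control 2 and sedanolide 3 and a second side of control 3, sedanolide 1 and sedanolide 2. The mitochondrial share of counts was 1.43% to 2.15% in the first and 4.24% to 5.22% in the second, and neither the labels nor the methods name a batch. All 8 hepatocyte markers were detected in every library, and of 8 markers of other cells, LUM was at 0 counts, PTPRC, COL1A1 and COL3A1 had at most 3 counts and KRT5 at most 5 counts in any library. CD68, PECAM1 and ACTA2 passed the filter on low counts.

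Of the 42 kinesins, 32 passed the filter on low counts and were tested, namely 12 of 14 mitotic, 14 of 17 transport and 6 of 11 ciliary and other kinesins. KIF25 and KIF2B had 0 counts in all libraries, which allows up to 3 counts in each. KIF4B, the intronless copy of KIF4A, had 0 to 1 counts, as did KIF5C, KIF19 and KIF26A. KIF1A, a motor of neuronal vesicles, had 0 to 4 counts. KIF6 had 2 to 9, KIF21B had 4 to 11 and KIF26B had 5 to 13 counts. These 10 genes were too low to compare at this depth.

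Within the family, 1 gene was past the thresholds of FDR 0.05 and fold change 1.5, KIF12, while 0.667% of all 14102 genes tested were past them. That count only restates how KIF12 was chosen. With each of the 6 libraries left out in turn, KIF12 met the thresholds in 1 of 6 fits (without sedanolide 3). In the fits where it did not, its log2 fold change was -1.83 to -1.62. Those fits had 0 to 28 genes in all past the thresholds. Among the 31 other kinesins tested, 0 were past both thresholds by the quasi-likelihood test of edgeR, adjusted over all genes by Benjamini-Hochberg, and 0 by DESeq2. At an unadjusted p-value under 0.05, edgeR gave 2 of these 31 (KIF16B and KIF17) and DESeq2 gave 1, whereas edgeR gave 11.9% of all genes tested. Their log2 fold changes (sedanolide over control) ran from -0.65 to 0.28 with a median of -0.01, beside a median of 0.01 over all genes tested. The fitted change of 30 of the 31 stayed within 1.5-fold, and 8.89% of all genes tested lay outside that range. Standard errors (SE) of these log2 fold changes were 0.105 to 0.557. For the least precise members a change past 1.5-fold in either direction was not detectable here. A change just past 1.5-fold could also be missed in the most precise members. ACSS3, a gene outside the family, did not pass at a log2 fold change of -0.61 (SE 0.107, adjusted p = 0.0721, edgeR).

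**Figure D1:**
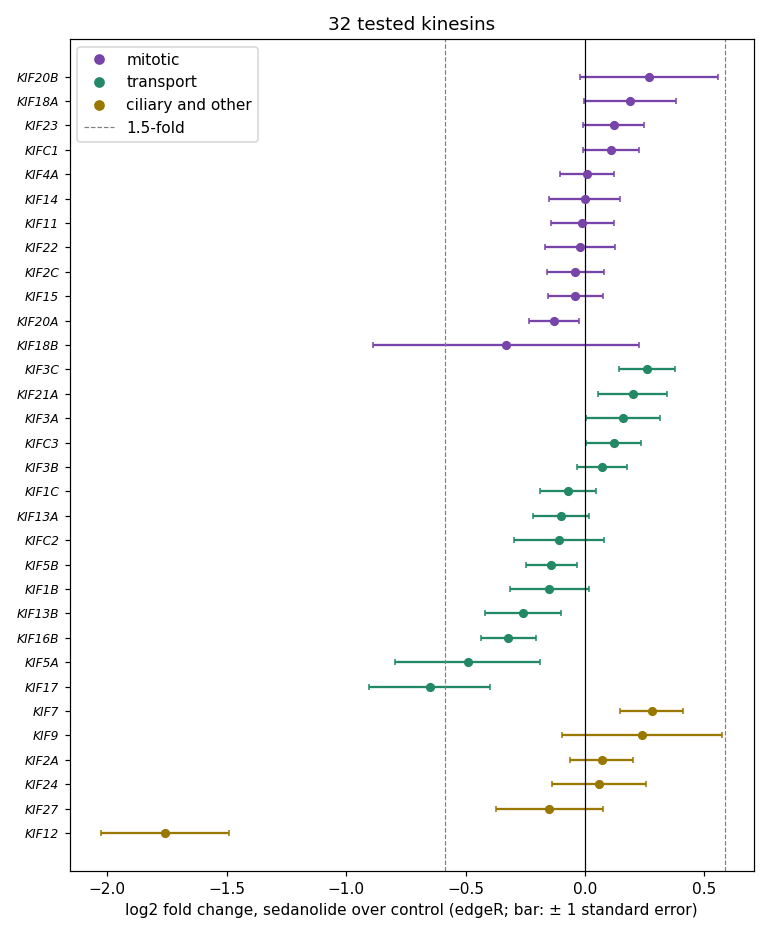
The log2 fold change of sedanolide over control cells (horizontal axis) for the 32 tested kinesins, with bars of 1 standard error, coloured by class, and dashed lines at a 1.5-fold change. KIF12 lies at -1.76, away from the other members between -0.65 and 0.28.

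KIF12 (ENSG00000136883) lies on the minus strand of chromosome 9 of GRCh38 from 114086126 to 114099292. It had 28, 36 and 32 counts in controls 1 to 3 and 9, 10 and 15 counts in sedanolide 1 to 3. In counts scaled to the normalized library size (CPM), controls 1 to 3 were at 1.70, 1.53 and 1.81 and sedanolide 1 to 3 at 0.484, 0.386 and 0.595. The lowest control library was thus well above the highest sedanolide library, and the groups did not overlap. The mean was 1.68 ± 0.143 CPM in the control libraries and 0.488 ± 0.104 CPM in the sedanolide libraries (SD, n = 3), and the fitted log2 fold change was -1.76 (SE 0.267).

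The transcript was rare in both groups. Summed over 3 libraries, KIF12 had 96 counts in control cells, or 1.66 CPM with an exact Poisson 95% interval of 1.35 to 2.03, and 34 counts in sedanolide-treated cells, or 0.488 CPM with an interval of 0.338 to 0.682. These intervals show how few counts stand behind each level and cover counting error only. KIF12 is not among the genes of the second table, so that no level per length is given for it. The log2 difference in CPM was -1.44 within the first side of component 1 and -2.06 within the second. Sedanolide 3 is the only sedanolide library of the first side, and control 3 the only control library of the second. As the groups do not overlap, both signs were fixed in advance, and neither value is a further test. The fitted difference of the second side from the first was -0.06 for KIF12. Of the 8 hepatocyte markers, 7 had a lower fitted level after sedanolide, with a median log2 fold change of -0.22 over the 8. None was past the thresholds, and 2 were at an unadjusted p under 0.05 (edgeR). Over all 14102 genes tested, 6948 were lower, the median was 0.01 and 11.9% were at an unadjusted p under 0.05 (edgeR). The groups of 2 markers did not overlap, with the sedanolide libraries lower, as in 9.65% of all genes tested. ALB was at 1039 to 1249 CPM in the control and 803 to 914 CPM in the sedanolide libraries. TTR was at 37.8 to 39.4 and 24.6 to 29.8 CPM. Summed over the 8 markers, the levels were 25290 to 39500 CPM and 18670 to 34160 CPM and overlapped, and those of the 8 markers of other cells were 78.3 to 98.0 CPM and 87.0 to 109 CPM. The part of these markers in the level of KIF12 was not tested. Fewer cells with KIF12 mRNA and less of it per cell cannot be told apart in such bulk libraries.

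**Figure D2:**
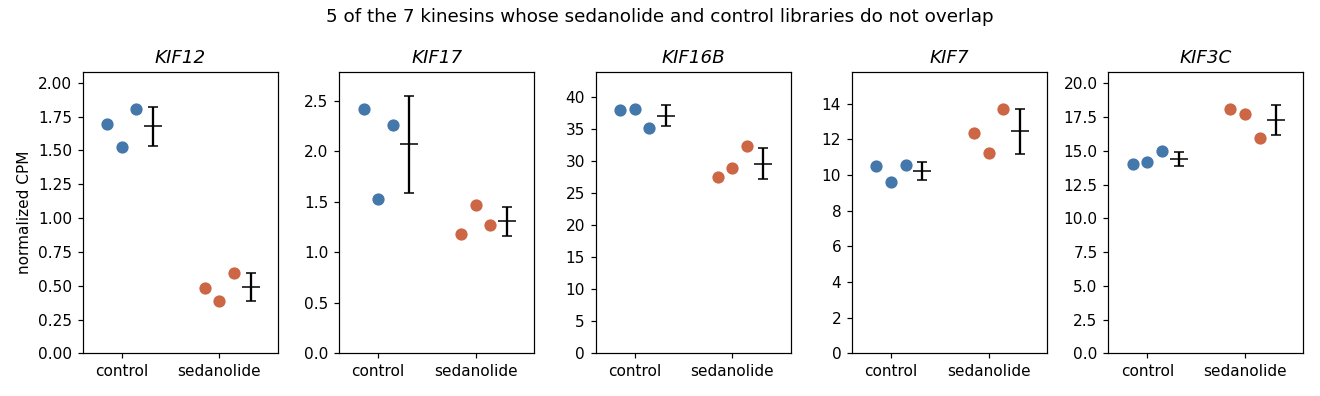
Normalized CPM (vertical axes, from 0) of 5 kinesins in each control and sedanolide library, with the mean and SD of 3 libraries beside the points. KIF12, KIF17 and KIF16B lie lower and KIF7 and KIF3C higher in all 3 sedanolide libraries, and of these only KIF12 was past the thresholds.

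Apart from KIF12, KIF16B, KIF17, KIF5B and KIF20A had all 3 sedanolide libraries below the 3 control libraries, as had 9.65% of all genes tested. KIF7 and KIF3C had them all above, as had 8.69% of all genes tested. Thus 4 and 2 of 31 kinesins stood apart in this way, and none of the 6 passed the FDR threshold.

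Levels per length were read from the second table, which gives TPM for 27 of the 42 kinesins. The kinesin with the highest mean was KIF5B, the ubiquitous heavy chain of kinesin-1, at 74.1 ± 10.1 TPM (SD, n = 6 libraries). KIF1C, a kinesin-3 of vesicle and mRNA transport, and KIF22, a chromokinesin that pushes chromosome arms from the poles, followed at 63.5 ± 5.13 and 62.9 ± 5.20 TPM, and the ranges of these 3 genes overlapped. KIFC3, a minus-end-directed motor of cell junctions and organelles, came next at 44.2 ± 4.75 TPM, clear of both of its neighbours. From KIF21A at 28.8 ± 1.68 TPM down to KIF7 at 3.85 ± 0.601 TPM, each gene overlapped the next in its range over the libraries. In all, 24 of the 26 pairs of neighbours overlapped. The median over the 12 mitotic kinesins was 17.4 TPM and that over 12 transport kinesins was 16.7 TPM, beside 20.6 TPM over the genes tested that are in this table.

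**Figure D3:**
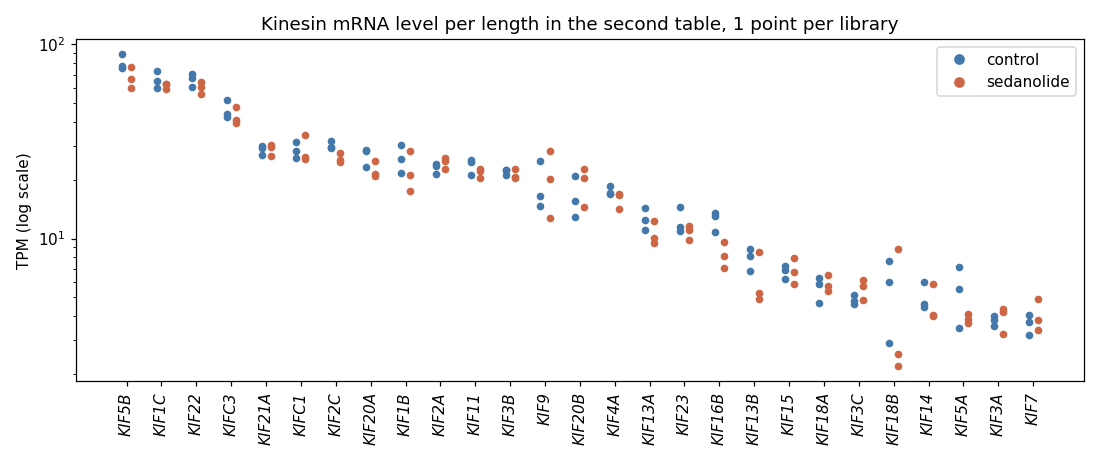
Level per length in TPM (vertical axis, log scale) of the 27 kinesins of the second table, in descending order, with 1 point per library. KIF5B, KIF1C and KIF22 lead with overlapping ranges, and in most genes the control and sedanolide points mix.

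The 12 tested mitotic kinesins had a median log2 fold change of -0.01 and a range of -0.33 to 0.27, and 0 were past the thresholds, with adjusted p-values of 0.665 to 0.996 (edgeR, Benjamini-Hochberg). Their summed level was 529 ± 40.2 CPM in the control libraries and 539 ± 28.9 CPM in the sedanolide libraries (SD, n = 3). It was 499 to 512 CPM in the 3 libraries of the first side and 540 to 574 CPM in those of the second. The sum thus separated the sides and not the treatment. Much of this gap came from KIF20B, whose mean was 57.2 CPM in the former libraries and 97.1 CPM in the latter. A lower fitted level on the second side was found for 4 of the 12 genes. The mean log2 level of the 12 genes, relative to the control libraries, overlapped between the sides. It ran from -0.04 to 0.02 in control 1, control 2 and sedanolide 3, and from -0.03 to 0.05 in the other libraries.

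Among the motors that move or shorten spindle microtubules, KIF2C, which depolymerizes microtubules at the centromere, was at 49.4, 43.8 and 53.1 CPM in controls 1 to 3 and 50.2, 46.7 and 45.0 CPM in sedanolide 1 to 3. The groups overlapped, with a log2 fold change of -0.04 (SE 0.120). In the second table, KIF2C was at 29.3 to 31.6 TPM in control cells and 24.7 to 27.5 TPM in sedanolide-treated cells, which do not overlap, and the difference on the log2(TPM + 1) scale was -0.21 (adjusted p = 0.527, limma). KIF18A, which damps chromosome movements at metaphase, was at 10.8, 11.9 and 15.2 CPM in the control libraries and 17.0, 14.5 and 11.9 CPM in the sedanolide libraries, a log2 fold change of 0.19 (SE 0.192), and these groups overlapped too. KIFC1, a minus-end-directed motor that gathers spindle poles, had 28.7 TPM over all libraries and a log2 fold change of 0.11. KIF22 was at 90.03, 74.3 and 99.2 CPM in the control libraries and 96.9, 83.4 and 80.2 CPM in the sedanolide libraries, with a log2 fold change of -0.02.

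Of the motors of the central spindle and cytokinesis, KIF20A, which brings the chromosomal passenger complex to the midzone, was at 56.2, 52.3 and 50.4 CPM in controls 1 to 3 and at 47.4, 47.7 and 49.8 CPM in sedanolide 1 to 3. Although its groups did not overlap, the gap was narrow and the log2 fold change was -0.13 (SE 0.105, adjusted p = 0.665, edgeR). In the second table its groups overlapped. KIF23, the motor of the centralspindlin complex, had a log2 fold change of 0.12 in CPM and of -0.17 on the log2(TPM + 1) scale, so that its sign depends on the table. KIF11, which slides spindle poles apart, KIF15, KIF14 and KIF4A had log2 fold changes between -0.04 and 0.01.

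KIF18B and KIF20B varied more between the sides of component 1 than between the conditions. KIF18B, which shortens astral microtubules, was at 16.1, 19.99 and 22.2 CPM in control 1, control 2 and sedanolide 3, and at 8.25, 5.43 and 7.45 CPM in control 3, sedanolide 1 and sedanolide 2. The side with fewer mitochondrial counts thus held all the high values of both conditions. The fitted difference of the second side from the first was -1.47 on the log2 scale, and KIF18B was the only one of 32 kinesins with a side difference over 1, which 4.75% of all genes tested had. For the treatment its log2 fold change was -0.33 (SE 0.557), and 0.02 with the side as a term. Single libraries decided this value, which was -1.19 without sedanolide 3, -0.62 without control 3, -0.05 without control 2 and 0 without sedanolide 1.

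KIF20B, a motor of late cytokinesis, went the other way, with 57.2, 59.0 and 55.5 CPM on the first side (control 1, control 2, sedanolide 3) and 93.5, 107 and 91.0 CPM on the second (control 3, sedanolide 1, sedanolide 2). Its side difference was 0.76, and its log2 fold change for the treatment was 0.27 (SE 0.289), or 0.01 when the side was added to the fit. With 1 library left out, the treatment value of KIF20B ran from 0.06 (without sedanolide 1) to 0.54 (without control 3). Of the 32 kinesins, 11 had sides that do not overlap, 6 higher and 5 lower on the second side, while 44.1% of all genes tested had such sides. The sides were drawn from the levels of all genes, kinesins included, so that these differences are given without a test. The part of the mitochondrial share in them was not tested.

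**Figure D4:**
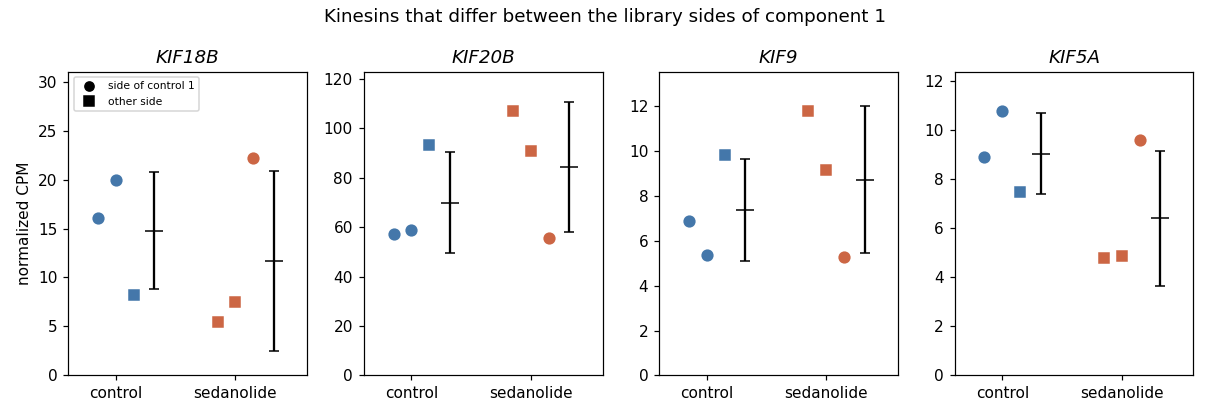
Normalized CPM (vertical axes, from 0) of 4 kinesins in control and sedanolide libraries, with circles for the side of control 1 (control 1, control 2, sedanolide 3), squares for the other side, and the mean and SD of each condition. In KIF18B and KIF5A the circles are the higher values in both conditions, and in KIF20B and KIF9 the squares are.

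The 14 tested transport kinesins had a median log2 fold change of -0.11, a range of -0.65 to 0.26 and 0 genes past the thresholds (adjusted p-values of 0.334 to 0.853, edgeR, Benjamini-Hochberg). Of these, 9 had a negative and 5 a positive fold change. Their summed level was 1107, 1096 and 1075 CPM in controls 1 to 3 and 1002, 1051 and 1075 CPM in sedanolide 1 to 3. The lowest control and the highest sedanolide library were thus level, and the means were 1093 ± 16.3 and 1043 ± 37.2 CPM (SD, n = 3). Within the first side the median log2 difference of these genes was -0.03 and within the second it was -0.04.

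In the kinesin-1 heavy chains, which carry cargo through light chains and adaptors, KIF5B was at 314, 329 and 326 CPM in the control libraries and 275, 298 and 306 CPM in the sedanolide libraries. Its groups lay apart by a small margin, with a log2 fold change of -0.14 (SE 0.106, adjusted p = 0.645, edgeR), and they overlapped in TPM. KIF5A, the neuronal heavy chain, was at 8.91, 10.8 and 7.46 CPM in the control libraries and 4.79, 4.87 and 9.59 CPM in the sedanolide libraries. Here the groups overlapped because sedanolide 3 was among the high libraries, and the log2 fold change of -0.49 (SE 0.304) split into -0.04 within the first side and -0.63 within the second. Without sedanolide 3 it was -0.91. In TPM, KIF5A was at 3.68, 4.11 and 3.84 in sedanolide 1 to 3 and at 5.5, 7.1 and 3.47 in controls 1 to 3. The high value of sedanolide 3 was thus seen in the counts only, and in TPM the sides overlapped. KIF5A shares 71 exon bases with DCTN2 on the opposite strand, and their mean counts were 165 and 1639.

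The endosome motor KIF16B, which binds membrane lipid through a PX domain, was at 38.0, 38.3 and 35.2 CPM in controls 1 to 3 and at 27.6, 29.0 and 32.4 CPM in sedanolide 1 to 3. All control libraries were above all sedanolide libraries, which also fixes the sign within each side, where the log2 difference was -0.23 and -0.32. The log2 fold change was -0.32 (SE 0.116), with an adjusted p of 0.334 (edgeR, Benjamini-Hochberg), which was the lowest among the kinesins other than KIF12. In TPM the control libraries of KIF16B were at 10.8 to 13.5 and the sedanolide libraries at 7.03 to 9.60, with a difference of -0.54 on the log2(TPM + 1) scale (adjusted p = 0.232, limma). Thus KIF16B was lower in every sedanolide library in both tables without passing the FDR threshold in either.

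KIF17, a kinesin-2 of cilia and dendrites, was a rare transcript, with 40, 36 and 40 counts in controls 1 to 3 and 22, 38 and 32 counts in sedanolide 1 to 3. In CPM, control cells were at 2.42, 1.53 and 2.26 and sedanolide-treated cells at 1.18, 1.47 and 1.27, so that control 2 was just above the highest sedanolide library. The log2 fold change of -0.65 (SE 0.253, adjusted p = 0.377, edgeR) was the only one past 1.5-fold besides that of KIF12. At this depth the counts of KIF17 leave a wide margin.

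The other kinesin-2 motors pull intraflagellar transport trains and vesicles. KIF3C was at 14.0, 14.2 and 15.0 CPM in the control libraries and 18.1, 17.7 and 15.98 CPM in the sedanolide libraries, with a log2 fold change of 0.26 (SE 0.118, adjusted p = 0.435, edgeR). Its groups did not overlap in CPM, but in TPM they did. KIF3A and KIF3B, which form the heterodimer of this class, had log2 fold changes of 0.16 and 0.07. KIF21A, a motor that restrains microtubule growth at the cell cortex, had a log2 fold change of 0.20 with overlapping groups. KIF1C was at 229, 191 and 205 CPM in the control libraries and 196, 209 and 192 CPM in the sedanolide libraries, a log2 fold change of -0.07, and the groups overlapped. KIFC3 had a log2 fold change of 0.12 in CPM and of -0.11 on the log2(TPM + 1) scale.

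Among the 5 tested ciliary and other kinesins besides KIF12, 0 were past the thresholds. KIF7, a motor of the tip of the cilium that acts in Hedgehog signalling, was at 10.5, 9.62 and 10.6 CPM in the control libraries and 12.4, 11.2 and 13.7 CPM in the sedanolide libraries. All sedanolide libraries were above all control libraries, with a log2 fold change of 0.28 (SE 0.133, adjusted p = 0.457, edgeR), while in TPM the groups overlapped. KIF7 shares 589 exon bases with TICRR on the opposite strand, and whether the counting used strand is not stated, so that reads of the pair may be exchanged.

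KIF9, a motor of motile cilia, was at 6.91, 5.38 and 5.27 CPM on the first side (control 1, control 2, sedanolide 3) and 9.83, 11.8 and 9.15 CPM on the second (control 3, sedanolide 1, sedanolide 2), with a log2 fold change of 0.24 for the treatment that ran from -0.03 (without sedanolide 1) to 0.51 (without sedanolide 3 or control 3). It shares 870 exon bases with its antisense gene KIF9-AS1 and 178 with KLHL18 on the opposite strand. The mean counts were 167 for KIF9, 41.7 for KIF9-AS1 and 511 for KLHL18. KIF2A, which depolymerizes microtubules at spindle poles and in neurons, was at 62.2, 64.8 and 74.9 CPM in the control libraries and 74.2, 75.8 and 61.9 CPM in the sedanolide libraries, a log2 fold change of 0.07. It shares 2446 exon bases with DIMT1 on the opposite strand. KIF2A was counted here with the ciliary and other kinesins, so that the medians and sums of mitotic kinesins leave it out. KIF27 and KIF24, the latter a kinesin of the centriole, had log2 fold changes of -0.15 and 0.06 with overlapping groups. KIF24 shares 144 exon bases with UBAP1 on the opposite strand, and their mean counts were 99.7 and 1200.

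The partners of the motors were read from lists of other genes. Of 8 genes for kinesin light chains, adaptors and kinesins of other names, 7 were tested and 0 were past the thresholds. KLC2, a kinesin light chain, had 18.6 to 22.4 CPM in the control libraries and 23.6 to 24.95 CPM in the sedanolide libraries, a log2 fold change of 0.27 (SE 0.121). KLC4, another light chain, had 55.7 to 68.8 CPM in the control libraries and 42.2 to 54.8 CPM in the sedanolide libraries, a log2 fold change of -0.31 (SE 0.145). The groups of both genes lay apart in CPM, and their adjusted p-values were 0.435 and 0.451 (edgeR, Benjamini-Hochberg). Such groups were found higher in 8.69% and lower in 9.65% of all genes tested. In TPM the groups of KLC4 lay apart and those of KLC2 overlapped. CENPE, the kinesin-7 of the kinetochore, had a log2 fold change of 0.07.

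All 16 spindle partners of mitotic kinesins were tested and 0 were past the thresholds, with a median log2 fold change of 0.06. The largest value in either direction was 0.37 for AURKA, a kinase of the spindle poles, with 111, 84.1 and 135 CPM in the control libraries and 170, 147 and 111 CPM in the sedanolide libraries. These groups overlapped. The lowest was -0.15 for INCENP, the scaffold of the chromosomal passenger complex that KIF20A moves. The median side difference of this list was 0.23 and 14 of its 16 genes were higher on the second side, beside a median of 0.02 and 7361 of 14102 genes over all genes tested. The summed mitotic kinesins were also higher on that side, but gene by gene 8 of the 12 tested were higher and 4 lower. Their median side difference was 0.11.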

How the data were processed

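The data are RNA-seq of 3 control and 3 sedanolide-treated libraries of HepG2 cells, grouped by their treatment label. Per the methods and the submitters' processing notes, the authors captured mRNA, prepared directional libraries, sequenced 150 bp paired-end reads and used FastQC, Trimmomatic, STAR (genome build GRCh38) and RSEM for quality control, trimming, alignment and counting. Tool versions, the annotation release and the strand setting of the counting are not given in the sources used here. The authors deposited expected counts per gene, without normalization, of which 7.90% to 8.59% per library were not whole. The values of the other deposited table, for 11006 genes including the reporters, are log2(TPM + 1) after a filter that is not stated.

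Expected counts were rounded, filtered with filterByExpr, normalized by TMM and fitted by the robust quasi-likelihood method of edgeR 4.0.16 in R 4.3.3, with condition as the only term, over all genes. A call needed an FDR (Benjamini-Hochberg) under 0.05 together with a fold change over 1.5. DESeq2 1.42.0, and limma 3.58.1 on the second table, were alternatives, with other scalings, filters, pseudocounts and designs and each library left out. The procedure was tested on simulated data for sedanolide against control, where of 13935 genes edgeR found 96 of the 96 genes given a 4-fold change and 64 of the 99 given a 2-fold change, and made 12 false calls. The simulation gave all genes the same dispersion and had no library sides. These rates thus check the procedure and do not give its power or false calls in these libraries. Libraries of a group differed by more than sampling noise, so none was a duplicate. Symbols, positions and exon overlaps came from GENCODE 44, and 61369 identifiers matched. Promoters came from RefSeq.

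The members, the gene lists, the side of component 1 and the alternatives were chosen with earlier results of these data known. The text names KIF12, the kinesins past both thresholds, in each class the 3 tested members with the largest positive, the 3 with the largest negative log2 fold change and the 3 with the highest TPM, and in the other lists the largest change in each direction. Members named beyond this rule (KIF11, KIF14, KIF15, KIF24, KIF3B, KIF4A and CENPE among those tested), and the kinesins with too few counts, were added to account for the family. Depth allows a floor of 3 counts per library, for counting error only.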

Additional observations from a re-analysis of the deposited data

How the results depend on the processing

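Over all genes, 94 were past both thresholds, and this number was 326 with DESeq2, 157 over all genes with at least 1 count, 379 with the library side as a term, and 60 in the log2(TPM + 1) table with or without a minimum mean of 1 TPM, which removed no gene. The number of kinesins past the thresholds was 1 (KIF12) and was 0 in the log2(TPM + 1) table and with a pseudocount of 0.1, where KIF12 is not listed. Leaving out 1 library gave 0 to 135 genes and 0 to 1 kinesins, with 0 genes without control 1 or sedanolide 2 (1065 and 887 at an unadjusted p under 0.05). KIF12 was called without sedanolide 3 and in none of the other 5 such fits. Its log2 fold change ran from -1.94 to -1.62 over the 12 alternatives that hold it, and was negative in all of them.

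The median log2 fold change of mitotic kinesins was -0.01. It was -0.12 in the log2(TPM + 1) table, with or without the minimum, and -0.13 with the pseudocount of 0.1, and -0.04 to 0.06 with 1 library left out. That of transport kinesins was -0.11, and it was -0.16 and -0.17 in these tables, -0.06 with the library side as a term and -0.14 to -0.05 with 1 library left out. The median of all genes in these tables was -0.07 and -0.08. A fit with the replicate number as a replicate block gave 0 genes and 0 kinesins past the thresholds (770 genes at an unadjusted p under 0.05) and -1.78 for KIF12. Libraries of the same number did not deviate together (r of -0.13, -0.30 and -0.73, and 0 of 3 correlated best with their own number), so that they share only a number. Of the values of the 22 kinesins named by rule under the alternatives, 298 kept their sign, to rounding, and their side of the thresholds. Another 17, none of them past the thresholds, changed sign or came to 0 after rounding. The remaining 6 (all of KIF12) no longer passed them, and 0 reversed after a call. The size of a shift was not counted, and KIF18B, among the 298, went from -0.33 to -1.19 without sedanolide 3. Counts of KIF12 and KIF17 limit the precision of both.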

Other observations

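Kinesins mostly walk to the plus ends of microtubules, and cytoplasmic dynein with its activator dynactin carries cargo the other way. Of 19 genes for dynein and dynactin subunits, 17 were tested and 0 were past the thresholds, with a median log2 fold change of 0.11 beside 0.01 over all genes tested. At an unadjusted p-value under 0.05, 2 of the 17 were higher and 0 lower (edgeR), a share close to the 11.9% of all genes tested. DYNLT1, a Tctex-type light chain of dynein, was at 27.9, 28.6 and 31.5 CPM in controls 1 to 3 and at 62.0, 54.1 and 36.8 CPM in sedanolide 1 to 3. All sedanolide libraries were above all control libraries, and sedanolide 3 was the closest to them. The log2 fold change was 0.80 (SE 0.199, adjusted p = 0.182, edgeR with Benjamini-Hochberg adjustment). When the library side was added to the fit it was 0.63 and past both thresholds (adjusted p = 0.0324, edgeR), but that fit called 379 of 14102 genes where the fit without the side called 94, and the sides were drawn from these same libraries.

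DYNC1H1, the heavy chain of cytoplasmic dynein and named after its values were seen, was at 274, 230 and 248 CPM in control cells and 301, 346 and 303 CPM in sedanolide-treated cells. Its groups did not overlap in CPM, with a log2 fold change of 0.34 (SE 0.123, adjusted p = 0.348, edgeR), but in TPM they did. Of the 17 genes tested in this list, 3 had all sedanolide libraries above all control libraries in CPM and 0 had them below. Over all genes tested these shares were 8.69% and 9.65%. The lowest values of the list were -0.26 for DYNLL2 and DYNLT3, light chains whose groups overlapped.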
